A study of Mus musculus with 8 samples.

Results

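The 10 genes described here are noncoding snoRNA host genes, *Gas5*, *Snhg1*, *Snhg3*, *Snhg5*, *Snhg6*, *Snhg8*, *Snhg11*, *Snhg12*, *Snhg15* and *Zfas1*. They were chosen by symbol, as genes whose spliced transcripts are known to be degraded by nonsense-mediated decay (NMD). They are 10 of the 40840 genes in the count tables, and all 10 were among the 19104 genes that passed the filter on low counts. Whole testes were sequenced from 4 mice called wild type and 4 called *Tra2b-cPEko*, all at postnatal day 12 (P12). In this study wild type mice were Tra2bPE fl/+, so they also carried 1 allele with the *Tra2b* poison exon flanked by LoxP sites. *Tra2b-cPEko* mice were Tra2bPE fl/-; Vasa-Cre, and lacked the poison exon in their germ cells. Vasa-Cre is active in germ cells from late embryonic development, so the somatic cells of the same testes kept 1 intact copy of this exon. The mice were described as biologically independent, and no litter or batch was given.

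A snoRNA host gene carries small nucleolar RNAs (snoRNAs) inside its introns. The introns are cut out by splicing and trimmed to snoRNAs, which guide the chemical modification or the cleavage of ribosomal RNA. The joined exons are exported, but their reading frames are short and end early. Ribosomes that stop there recruit the NMD factors, and the spliced RNA is degraded. Poison exons, such as that of *Tra2b*, lower the level of their own transcripts through the same decay pathway. The steady level of a host transcript therefore depends on both its synthesis and its decay, and read counts do not separate them. No sample here had NMD blocked, so whether these transcripts were decay substrates in these testes was not tested. In whole testes, fewer cells of a type and less RNA per cell also cannot be told apart.

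Many snoRNA host genes are transcribed from TATA-containing promoters and start with a run of pyrimidines, as ribosomal protein genes do. To show this feature, promoter sequences were read from RefSeq (GRCm38.p6), which gave 9 of the 10 genes, and *Gas5* had 2 start sites. The 4 promoters below are shown because they held both features. Each spans 50 bases before to 50 bases after the start, 5′ to 3′ on the strand of the gene, and the capitals mark TATAAA or TATATA, and CTTT within 15 bases of the start.

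*Gas5*, second start (chr1:161035116-161035215, + strand): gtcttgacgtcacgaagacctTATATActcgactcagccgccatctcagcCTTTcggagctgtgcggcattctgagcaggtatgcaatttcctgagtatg
*Snhg5* (chr9:88522848-88522947, - strand): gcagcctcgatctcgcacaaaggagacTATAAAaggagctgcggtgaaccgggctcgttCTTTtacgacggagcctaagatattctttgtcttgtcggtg
*Snhg8* (chr3:123508287-123508386, - strand): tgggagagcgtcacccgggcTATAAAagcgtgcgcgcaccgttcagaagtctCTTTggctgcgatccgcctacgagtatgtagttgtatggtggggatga
*Snhg12* (chr4:132308628-132308727, + strand): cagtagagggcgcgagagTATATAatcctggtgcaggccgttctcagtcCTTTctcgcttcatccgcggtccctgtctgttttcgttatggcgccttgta

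These 4 genes had TATAAA or TATATA on the transcribed strand before a start site, and 5 genes, these and *Snhg15*, had CTTT around one. Of all 32851 promoter windows in the RefSeq table, 3.67% had the first feature, 12.0% the second and 0.508% both. The first base of TATAAA or TATATA lay at -29 in *Gas5*, -23 in *Snhg5*, -30 in *Snhg8* and -32 in *Snhg12*, counted from the start site. Searched on either strand over the whole 100 bases, TATAAA or TATATA was in 6.24% of windows, and *Snhg1* and *Snhg3* then also held one. A match of letters is a description of the sequence and does not show that a factor binds there.

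The host genes lie on 7 chromosomes, and several are closely packed with other genes. On GRCm39, with GENCODE vM39 annotation, *Gas5* lies at chr1:160861793-160866118 (+ strand) with 10 snoRNA entries inside it, and *Snhg1* lies at chr19:8700319-8703812 (+ strand) with 8. *Snhg3* (chr4:132075325-132080997, - strand) and *Snhg12* (chr4:132035905-132038762, + strand) lie near each other and hold 2 and 5 entries. *Zfas1* lies at chr2:166903619-166907799 (+ strand) with 3 entries, and *Snhg11* lies at chr2:158217558-158228071 (+ strand) with 2. *Snhg5* (chr9:88377321-88405615, - strand) holds 2 entries. *Snhg6* (chr1:9926809-10014504, - strand), *Snhg8* (chr3:123301192-123302578, - strand) and *Snhg15* (chr11:6473829-6478870, - strand) hold 1 each. *Gas5*, *Snhg1*, *Snhg6* and *Zfas1* overlap protein-coding genes on the opposite strand, and the sources used here do not state whether counting used the strand. *Snhg3* shares 633 exon bases with *Rcc1* on the same strand, and its canonical transcript matches *Rcc1* transcripts, so the split of reads between these genes is uncertain. At 95% identity over at least 50% of the canonical transcript, none of the other 9 genes had a match in another gene.

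Each library had 36757386 to 59101569 reads on genes, and the members took between 171 and 3630 reads each in a library. *Tra2b* itself, the targeted gene, averaged 164 ± 8.93 CPM in wild type against 198 ± 8.49 CPM in *Tra2b-cPEko* testes (SD, n = 4 each), where CPM is the read count scaled to the TMM-normalized library total. The fold change of *Tra2b* was 0.27 on the log2 scale, with an adjusted p of 0.0552 by edgeR's quasi-likelihood test and 0.000195 by DESeq2, and the groups did not overlap. Reads assigned to no annotated feature made up 12.4% to 12.8% of wild type reads and 13.2% to 13.6% of *Tra2b-cPEko* reads, without overlap. The sources used here do not state whether this class holds reads in introns. Markers of differentiating spermatogonia summed to between 746 and 821 CPM in wild type and between 634 and 740 CPM in *Tra2b-cPEko* testes. All 8 of those markers had an estimate below 0, and edgeR called 1 of them lower and DESeq2 called 2. The marker called by edgeR was *Sohlh1*, a transcription factor of spermatogonial differentiation, with a log2 fold change of -0.34 (SE 0.055) and an adjusted p of 0.0341 by edgeR's quasi-likelihood test. The 7 macrophage markers summed to between 104 and 124 CPM in wild type and between 125 and 153 CPM in *Tra2b-cPEko* testes. The summed levels of the other 9 marker lists overlapped between genotypes. Single genes of the Leydig cell list still differed. Its 8 markers had a median log2 fold change of 0.43, with 2 below 0. None of them was called by edgeR, and DESeq2 called 2, *Lhcgr* and *Hsd3b6*. *Lhcgr* was higher without overlap (log2 fold change 0.46, SE 0.115), whereas *Hsd3b6* overlapped. The adjusted p of *Lhcgr* was 0.131 by edgeR's quasi-likelihood test and 0.0085 by DESeq2. *Tra2b-cPEko* mouse C stood apart with 140 CPM of epididymal epithelium markers, mostly *Crisp1* at 107 CPM. The part of these shifts in the levels of the host genes was not tested.

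The first question was whether the host transcripts differed in level when germ cells lost the *Tra2b* poison exon. All 10 estimates were lower in *Tra2b-cPEko* testes, but the differences were small, between -4.28% and -11.1%. None of the 10 passed the threshold of an adjusted p of 0.05 (edgeR's quasi-likelihood test, Benjamini-Hochberg adjustment over 19104 genes), where 0.157% of all genes did in either direction and 0.0262% were called lower. With DESeq2 none of the 10 was called either, where 2.79% of all genes were called. At an unadjusted p under 0.05, 2 members were lower, and 15.3% of all genes passed this in either direction and 7.07% as lower. An estimate below 0 was found for 10 of 10 members and for 50.3% of all genes. In 2 members every *Tra2b-cPEko* mouse was below every wild type mouse, as in 4.18% of all genes. The 10 estimates come from the same 8 mice, so they are not 10 independent observations.

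**Figure D1:**
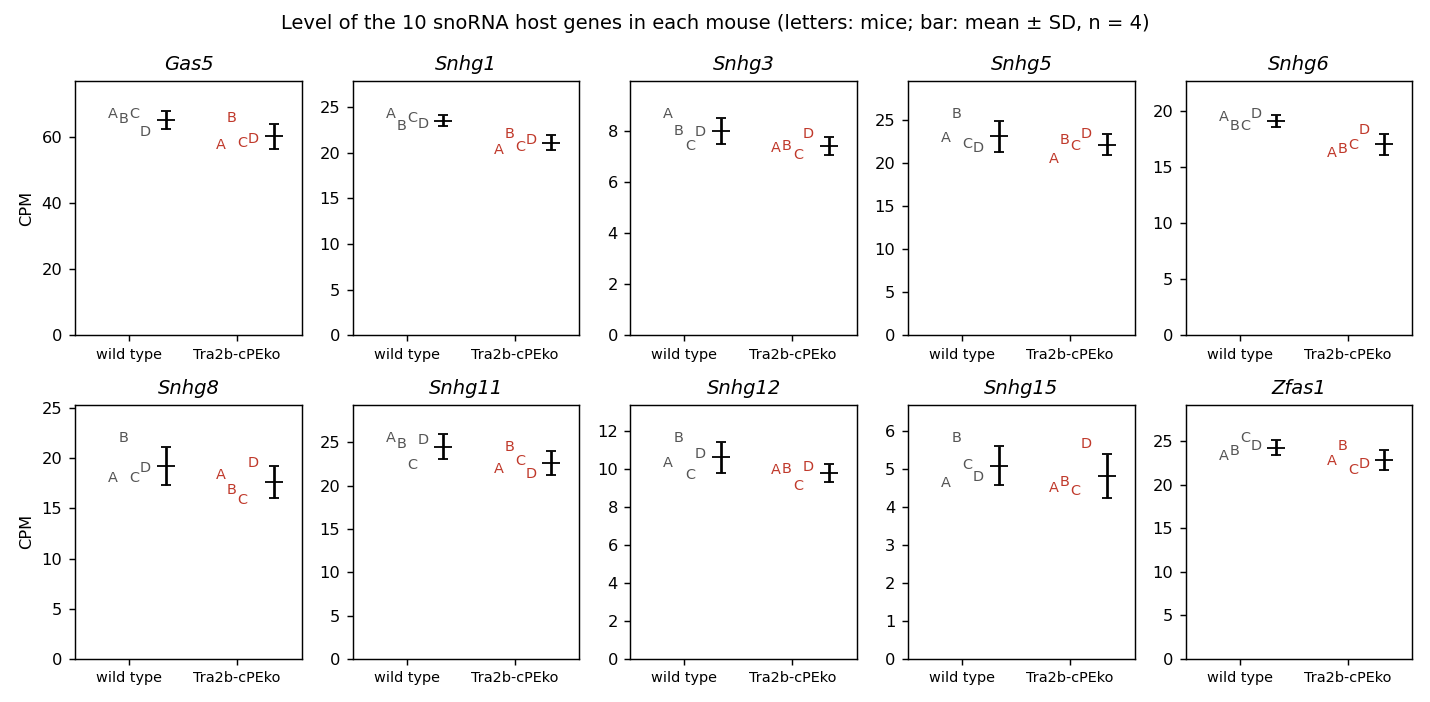
CPM (vertical axes, starting at 0) of each of the 10 host genes in each mouse, with letters for the 4 wild type (grey) and 4 *Tra2b-cPEko* (red) mice and bars for mean ± SD. The groups do not overlap in *Snhg1* and *Snhg6*, and overlap in the other 8 genes.

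*Snhg1* hosts a series of C/D box snoRNAs, the class that guides methylation of ribosomal RNA. Its level was 24.2, 23.0, 23.8 and 23.1 CPM in wild type mice A to D, and 20.3, 22.1, 20.7 and 21.4 CPM in *Tra2b-cPEko* mice A to D. The lowest wild type mouse was above the highest *Tra2b-cPEko* mouse. The means were 23.5 ± 0.589 CPM and 21.1 ± 0.782 CPM (SD, n = 4 each), a difference of -10.3%. The fold change was -0.16 (SE 0.055) on the log2 scale, with a 95% interval of -0.28 to -0.04 and an adjusted p of 0.221 by edgeR's quasi-likelihood test. The two-sided exact permutation test gave 0.0286, which is the smallest value that 4 against 4 mice allow.

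*Snhg6*, the host of Snord87, had the lowest estimate of the 10. It was at 19.5, 18.7, 18.7 and 19.7 CPM in wild type mice A to D and at 16.3, 16.6, 17.0 and 18.3 CPM in *Tra2b-cPEko* mice A to D. Again no mice overlapped, although *Tra2b-cPEko* mouse D was close to the lowest wild type mice. The means were 19.2 ± 0.550 CPM and 17.0 ± 0.906 CPM (SD, n = 4 each), a difference of -11.1%. The log2 fold change was -0.17 (SE 0.061), with a 95% interval of -0.30 to -0.04, an adjusted p of 0.235 by edgeR's quasi-likelihood test and an exact permutation p of 0.0286. Its opposite-strand neighbours *Sgk3* and *Mcmdc2* had log2 fold changes of 0.07 and 0.01.

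*Gas5*, a gene first found through its accumulation in growth-arrested cells, hosts many C/D box snoRNAs and had the highest counts of the 10. It was at 67.0, 65.6, 67.0 and 61.5 CPM in wild type mice A to D, and at 57.6, 65.9, 58.1 and 59.6 CPM in *Tra2b-cPEko* mice A to D. *Tra2b-cPEko* mouse B was in the wild type range, whereas the other 3 were below it. The means were 65.3 ± 2.61 CPM and 60.3 ± 3.82 CPM (SD, n = 4 each). The log2 fold change was -0.11 (SE 0.053), with an adjusted p of 0.330 by edgeR's quasi-likelihood test and an exact permutation p of 0.0857. It was the most precisely measured member, and its 95% interval ran from -14.8% to 0.051%.

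*Zfas1* starts close to the promoter of *Znfx1* and hosts snoRNAs of the Snord12 family. It was at 23.3, 23.9, 25.4 and 24.4 CPM in wild type mice A to D and at 22.8, 24.4, 21.7 and 22.4 CPM in *Tra2b-cPEko* mice A to D. Mouse B of *Tra2b-cPEko* was again within the wild type range. The log2 fold change was -0.09 (SE 0.058), with an adjusted p of 0.496 by edgeR's quasi-likelihood test. *Znfx1*, on the opposite strand, had an estimate of 0.08 on the log2 scale.

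*Snhg5*, the host of Snord50a and Snord50b, had the estimate nearest to 0. Its values were 22.9, 25.7, 22.2 and 21.7 CPM in wild type mice A to D and 20.5, 22.6, 22.0 and 23.4 CPM in *Tra2b-cPEko* mice A to D. *Tra2b-cPEko* mouse D was above 3 of the 4 wild type mice. The log2 fold change was -0.06 (SE 0.069), with an adjusted p of 0.696 by edgeR's quasi-likelihood test.

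The remaining hosts include *Snhg3*, *Snhg8*, *Snhg12* and *Snhg15*, which carry H/ACA box snoRNAs. This class guides pseudouridylation of ribosomal RNA or, for Snora73, cleavage of its precursor. The names of the 2 snoRNA entries in *Snhg11* do not give their class. *Snhg3*, the host of Snora73a and Snora73b, was at 8.64, 7.97, 7.41 and 7.95 CPM in wild type mice A to D and at 7.32, 7.41, 7.03 and 7.87 CPM in *Tra2b-cPEko* mice A to D. *Snhg8*, the host of Snora24, was at 18.0, 22.0, 18.0 and 19.0 CPM in wild type and at 18.3, 16.9, 15.8 and 19.5 CPM in *Tra2b-cPEko* mice. The groups overlapped in both genes, with log2 fold changes of -0.11 (SE 0.084) and -0.13 (SE 0.085). *Snhg11* was at 25.5, 24.8, 22.4 and 25.3 CPM in wild type mice A to D and at 21.9, 24.5, 22.8 and 21.3 CPM in *Tra2b-cPEko* mice A to D. *Snhg12*, which carries Snora16a, Snora44, Snora61 and Snord99, was at 10.3, 11.7, 9.70 and 10.8 CPM in wild type and at 9.96, 10.02, 9.13 and 10.1 CPM in *Tra2b-cPEko* mice. Each had an estimate of -0.12 on the log2 scale (SE 0.065 and 0.080), and in each the groups overlapped.

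*Snhg15*, the host of Snora9, had the lowest counts and the widest interval. It was at 4.64, 5.82, 5.11 and 4.79 CPM in wild type mice A to D and at 4.51, 4.66, 4.43 and 5.67 CPM in *Tra2b-cPEko* mice A to D. *Tra2b-cPEko* mice B and D were inside the wild type range. Its log2 fold change was -0.08 (SE 0.115), with an adjusted p of 0.776 by edgeR's quasi-likelihood test and a 95% interval of -20.5% to 12.4%. Over all 10 members the upper bounds of the 95% intervals lay between -2.6% and 12.4%, and the lower bounds between -20.5% and -13.7%. A rise of any of these transcripts by more than 12.4% was therefore outside its interval. These intervals are per gene and were not widened for the number of genes. Single mice set the size of several estimates. Without wild type mouse B the log2 fold change was -0.0086 in *Snhg5*, -0.011 in *Snhg15*, -0.06 in *Snhg8* and -0.07 in *Snhg12*. Without *Tra2b-cPEko* mouse C it was -0.08 in *Snhg8* and -0.05 in *Snhg15*, and without *Tra2b-cPEko* mouse D it was -0.17 in *Snhg15*. Leaving out *Tra2b-cPEko* mouse A moved *Snhg5* to -0.03 and *Snhg15* to -0.05. Without wild type mouse A *Snhg3* was at -0.07 and *Snhg15* at -0.12, and without wild type mouse D *Snhg5* was at -0.10. In *Snhg1* and *Snhg6* such fits gave -0.18 to -0.14 and -0.21 to -0.15.

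**Figure D2:**
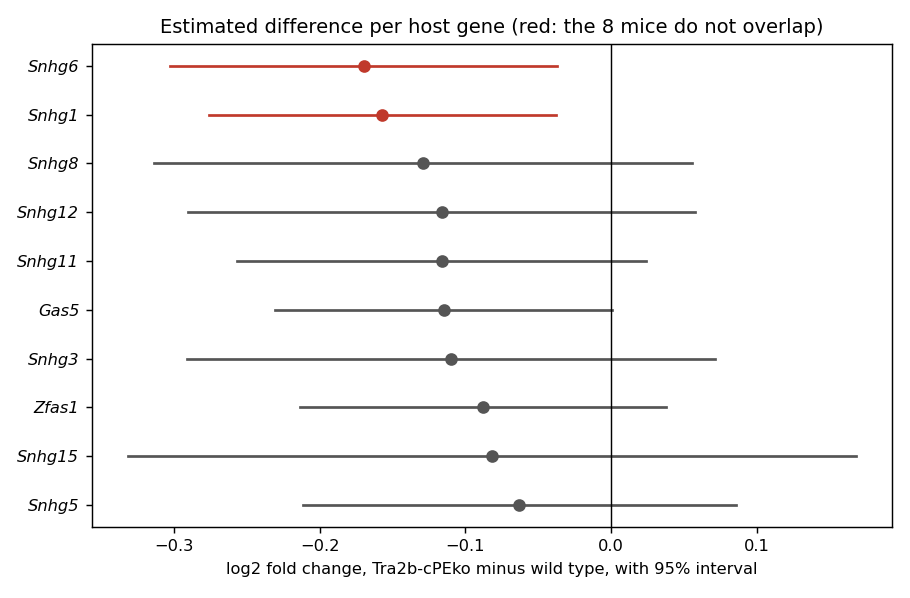
Log2 fold change (horizontal axis, *Tra2b-cPEko* minus wild type) of each host gene with its 95% interval from the edgeR fit. All 10 points are below 0, from -0.17 in *Snhg6* to -0.06 in *Snhg5*, and the intervals of *Snhg1* and *Snhg6* (red) alone lie wholly below 0.

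The members were next compared across mice. Their summed level was 224, 229, 220 and 218 CPM in wild type mice A to D, and 199, 215, 199 and 210 CPM in *Tra2b-cPEko* mice A to D. The sums did not overlap, with means of 223 ± 4.81 CPM and 206 ± 7.97 CPM (SD, n = 4 each) and a difference of -7.69%. Scaled to the reads on genes without normalization factors, the difference was -7.94%. *Tra2b-cPEko* mice A and C had the lowest sums. Mouse C is the library with epididymal markers, and without it the difference was -6.65%, against -6.76% without mouse A. Mouse A was below every wild type mouse in 8 of the 10 genes and mouse C in 8, whereas mouse B was in 3 and mouse D in 5. The lowest of all 8 mice was *Tra2b-cPEko* mouse A in 4 genes, C in 5 and D in 1. Since *Gas5* gives the largest single term of the sum, the mean of the log2 levels, each centred on its gene, was also taken. It ran from 0.016 to 0.119 in wild type and from -0.116 to 0.0038 in *Tra2b-cPEko* mice, and wild type mouse C was closest to *Tra2b-cPEko* mouse D.

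**Figure D3:**
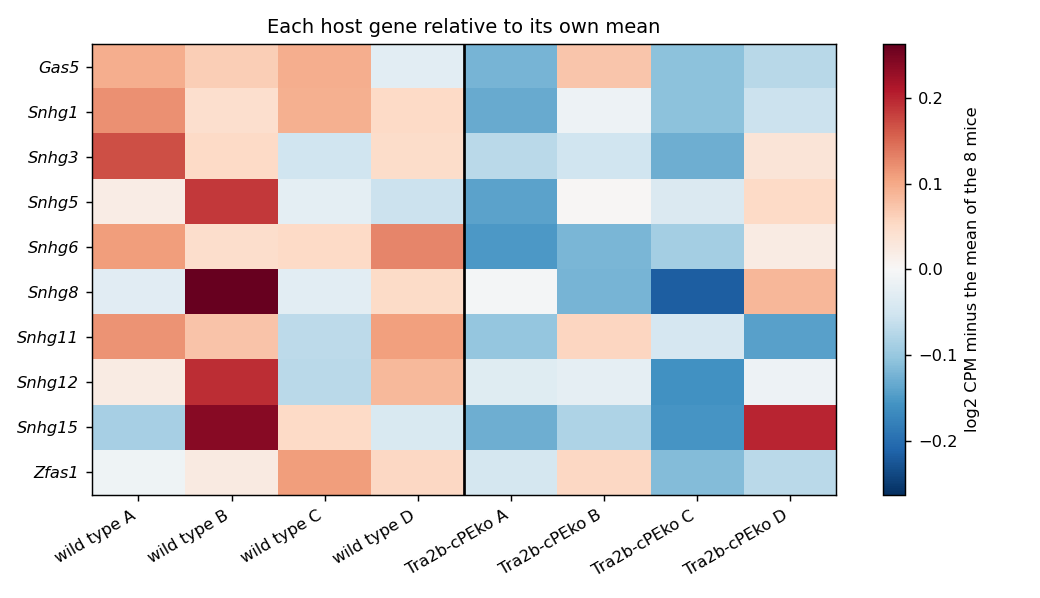
Log2 CPM of each host gene (rows) in each mouse (columns) minus the mean of that gene over the 8 mice, blue below and red above the mean. *Tra2b-cPEko* mice A and C are below that mean in all 10 genes, mouse B in 6 and mouse D in 5.

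Levels of different genes can be compared only per length. Per kilobase of merged exons, *Gas5* was highest at 15.4 ± 0.618 CPM per kb in wild type (SD, n = 4). Its mean over all 8 mice was at percentile 83.1 of 17459 genes tested with a length. *Snhg8* followed at 13.9 ± 1.38, and these neighbours were separated by about the SD of *Snhg8*. *Snhg3* was at 8.10 ± 0.514, *Snhg1* at 6.73 ± 0.169, *Zfas1* at 6.46 ± 0.234 and *Snhg5* at 5.20 ± 0.399 CPM per kb. *Snhg12* was at 3.72 ± 0.289, *Snhg6* at 3.33 ± 0.0957 and *Snhg11* at 2.87 ± 0.168 CPM per kb. *Snhg15* was lowest at 1.01 ± 0.104 CPM per kb in wild type, and its mean over all 8 mice was at percentile 29.2. The order depended on the length used, because GENCODE lists many intron-retaining transcripts of these genes. With the length of the canonical transcript *Zfas1* moved from rank 5 to rank 2 and *Snhg8* from rank 2 to rank 5, whereas *Gas5* stayed first and *Snhg15* last. These lengths are from GENCODE, whereas the study's methods name the NCBI annotation of GRCm39. The lengths may therefore not match the features that were counted, and the levels per kb, their order and the percentiles are uncertain.

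Across the 8 mice, the correlation of each member with the mean of the other 9 (log2 CPM, Pearson's r) ran from 0.47 in *Zfas1* to 0.81 in *Snhg12*. These correlations are over mice of both genotypes, and a shared difference between genotypes can raise them. The genes most like the mean of the members, among 10842 genes of at least 10 CPM, were *Myef2* (r = 0.978), *Pold1* (r = 0.972), *Osgep* (r = 0.969), *Adsl* (r = 0.967) and *Kat8* (r = 0.962). These were picked as the highest of many correlations over 8 points that share libraries and genotype, and are given as a description. The 5 genes had log2 fold changes between -0.17 and -0.12, and none was called.

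The second question was whether the snoRNAs carried in the introns moved with their hosts. RefSeq places 32 snoRNA genes inside the 10 hosts. All 32 were in the count tables, 31 had at least 1 read, 26 passed the filter on low counts and none of these was called by edgeR. Mature snoRNAs have no poly(A) tail, for which an mRNA library selects, so these counts are not a measure of mature snoRNA. GENCODE also places most nested entries, Snord22 among them, inside an exon of some host transcript, so reads on them may come from host RNA. The 32 rows summed to 21.9, 22.8, 25.4 and 24.1 CPM in wild type mice A to D, and to 21.7, 24.9, 21.6 and 21.7 CPM in *Tra2b-cPEko* mice A to D. The groups overlapped, with means of 23.6 ± 1.54 CPM and 22.5 ± 1.62 CPM (SD, n = 4 each). The other 1298 snoRNA rows summed to 103 ± 2.46 CPM and 101 ± 6.72 CPM.

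The snoRNA rows with the lowest p-values inside the hosts are shown here as sequence, with the paralogue of 1 of them, since they went in opposite directions. Sequences are from GRCm39 at the GENCODE positions, 5′ to 3′ on the strand of the gene, and the capitals mark the D box (CTGA) of Snord22 and the ACA box of the Snora73 genes.

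Snord22, in *Snhg1* (chr19:8703230-8703355, + strand): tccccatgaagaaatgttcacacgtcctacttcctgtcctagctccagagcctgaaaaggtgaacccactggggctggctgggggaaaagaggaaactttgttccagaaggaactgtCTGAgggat
Snora73b, in *Snhg3* (chr4:132079633-132079837, - strand): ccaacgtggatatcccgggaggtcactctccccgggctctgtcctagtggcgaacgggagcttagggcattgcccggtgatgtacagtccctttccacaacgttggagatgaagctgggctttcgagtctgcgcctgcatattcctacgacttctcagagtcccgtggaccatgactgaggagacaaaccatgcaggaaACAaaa
Snora73a, in *Snhg3* (chr4:132080086-132080290, - strand): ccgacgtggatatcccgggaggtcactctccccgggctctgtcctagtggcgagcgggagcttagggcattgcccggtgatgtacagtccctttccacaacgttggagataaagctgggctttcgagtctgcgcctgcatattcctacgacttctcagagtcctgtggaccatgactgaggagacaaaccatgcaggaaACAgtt

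Snord22 lies in intron 8 of the canonical *Snhg1* transcript. It had 58, 57, 69 and 87 reads in wild type mice A to D and 78, 66, 91 and 59 reads in *Tra2b-cPEko* mice A to D. Normalized, this was 1.31 to 1.47 CPM in wild type and 1.56 to 1.95 CPM in *Tra2b-cPEko* mice, without overlap. The log2 fold change was 0.31 (SE 0.136), with an adjusted p of 0.312 by edgeR's quasi-likelihood test. Snora73b was instead at 0.973 to 1.18 CPM in wild type and at 0.654 to 0.922 CPM in *Tra2b-cPEko* mice, with a log2 fold change of -0.42 (SE 0.165) and an adjusted p of 0.258 by edgeR's quasi-likelihood test. Snora73a, which is identical to it at 198 of 205 bases (96.6%), overlapped between genotypes and had a log2 fold change of -0.13 (SE 0.198). Reads not aligned uniquely are listed apart in the tables, so the values of Snora73a and Snora73b are uncertain.

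Read against the host in the same library, 23 snoRNA rows with at least 10 reads in every mouse could be compared, and 4 of them did not overlap between genotypes, all 4 higher in *Tra2b-cPEko* mice. In CPM, which is not a ratio to a host, 4.36% of all genes were higher without overlap. The same share was not computed for ratios of other genes. Per 1000 reads of *Snhg1*, Snord22 had 54.1, 58.7, 61.0 and 63.7 reads in wild type mice A to D and 77.0, 81.5, 94.1 and 75.1 in *Tra2b-cPEko* mice A to D, a ratio of means on the log scale of 1.38. Per 1000 reads of *Gas5*, the row LOC115487678 had 5.74, 5.05, 5.65 and 6.89 reads in wild type mice and 7.66, 7.85, 7.72 and 8.68 in *Tra2b-cPEko* mice, also 1.38-fold. Its counts were low, at 17, 14, 18 and 25 reads in wild type and 22, 19, 21 and 19 reads in *Tra2b-cPEko* mice. Gm23201 in *Zfas1* was at 35.3 ± 2.59 and 45.3 ± 6.39 reads per 1000, and LOC115487884 in *Snhg15* was at 83.9 ± 14.9 and 105 ± 13.2 reads per 1000 (SD, n = 4 each). Each had an exact permutation p of 0.0286, the smallest possible, and 0.164 after Benjamini-Hochberg adjustment over the 23 rows. With 8 mice, 14 of the 23 rows would have had to reach this smallest p for an adjusted p under 0.05, so the adjusted values say little in either direction. The hosts themselves, which are the denominators, had differences of -5.43% to -10.3%. In CPM, the snoRNA rows differed by 26.8% (LOC115487678), 23.8% (Snord22), 21.6% (Gm23201) and 18.4% (LOC115487884). Only LOC115487884 overlapped between genotypes in CPM. LOC115487884 also had low counts, at 19, 22, 15 and 26 reads in wild type and 21, 21, 20 and 22 reads in *Tra2b-cPEko* mice. Without wild type mouse C, the difference of LOC115487884 went from 0.33 to 0.19 on the log2 scale.

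**Figure D4:**
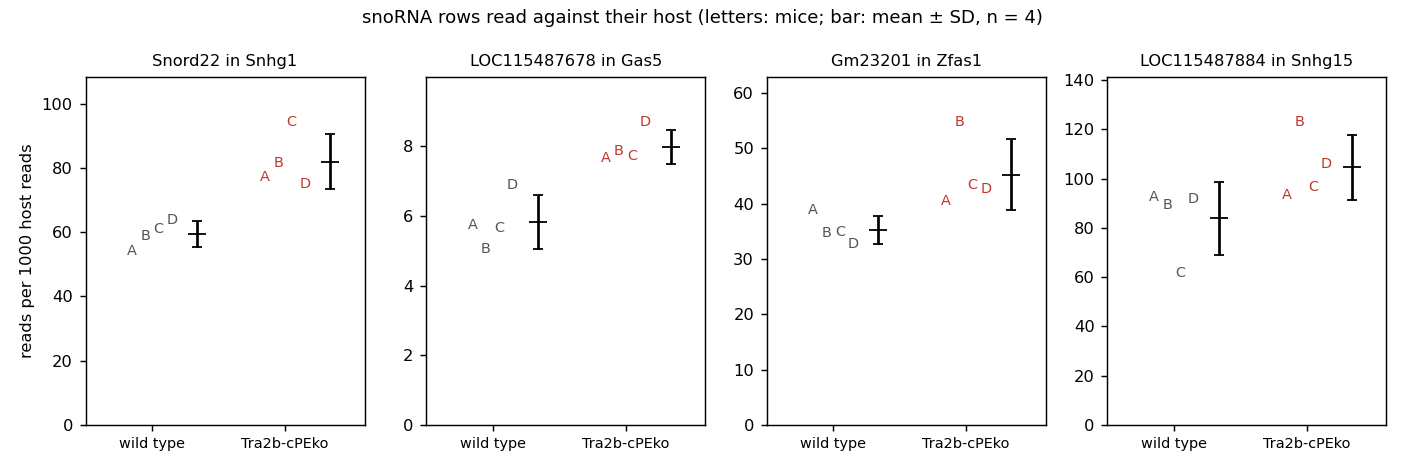
Reads on 4 snoRNA rows per 1000 reads of the host gene (vertical axes, starting at 0) in each mouse, with letters for the mice and bars for mean ± SD. These are the 4 rows, of 23, whose groups do not overlap, and each is higher in *Tra2b-cPEko* mice.

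The other 19 ratios overlapped, with fold differences from 0.795 for Snora73b in *Snhg3* to 1.24 for LOC115489082 in *Snhg1*. Summed over all snoRNA rows of a host, *Gas5* carried 169 ± 15.3 nested reads per 1000 host reads in wild type and 168 ± 4.84 in *Tra2b-cPEko* mice. *Snhg1* carried 223 ± 31.1 and 248 ± 17.5, and *Snhg12* carried 210 ± 23.2 and 223 ± 6.70 (SD, n = 4 each). Of 9 hosts tested, the lowest adjusted exact permutation p was 0.257, where 6 hosts at the smallest p would be needed to pass. Snora24 in *Snhg8* had 0 reads in all 8 libraries. The share of reads assigned to no annotated feature was also higher in every *Tra2b-cPEko* library, as given above, and its part in these ratios was not tested.

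The host genes share genomic space with neighbours, and 10 protein-coding genes that overlap a host or lie nearest to it are described. None was called. *Myo1g*, near *Snhg15*, had a log2 fold change of 0.34 (SE 0.139), unadjusted p of 0.0309 and adjusted p of 0.278 by edgeR's quasi-likelihood test, opposite in sign to *Snhg15*. The other 9 were between -0.08 (*Prss12*, near *Snhg8*) and 0.10 (*Zbtb37*, opposite *Gas5*). *Rcc1*, which shares exon sequence with *Snhg3*, had an estimate of -0.06 (SE 0.055). *Slc3a2*, opposite *Snhg1*, had an estimate of 0.05 (SE 0.044), *Trnau1ap*, near *Snhg12*, -0.04, and *Phactr4*, near *Snhg3*, 0.09.

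Other genes of the same pathway were then set beside the members. The median log2 fold change was -0.12 over the 10 members, with 10 below 0, and -0.00108 over all 19104 genes tested. Over the 2658 genes tested that RefSeq annotates as lncRNAs it was 0.07, with 1024 below 0. Of 14 other noncoding snoRNA hosts, 13 had an estimate below 0, with a median of -0.06, and none was called. The lowest p-values were those of *Snhg9*, at 0.508 ± 0.0559 CPM in wild type and 0.316 ± 0.0388 CPM in *Tra2b-cPEko* mice (log2 fold change -0.67, SE 0.213), and *Snhg4*, at 5.19 ± 0.355 and 4.33 ± 0.318 CPM (-0.26, SE 0.101; SD, n = 4 each). Neither gene overlapped between genotypes, where 4.18% of all genes were lower without overlap. Their adjusted p were 0.186 and 0.258 by edgeR's quasi-likelihood test. *Snhg9* had few reads, at 24, 24, 22 and 27 in wild type mice A to D and 15, 12, 17 and 10 in *Tra2b-cPEko* mice A to D.

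Protein-coding hosts, most of them genes of ribosomal proteins and translation factors, had a median of -0.08, with 27 of 33 below 0. None of the 33 was called by edgeR, whereas DESeq2 called 3, where 2.79% of all genes were called. At an unadjusted p under 0.05 by edgeR's quasi-likelihood test 8 were lower and none was higher, where 7.07% of all genes were lower. In 5 every *Tra2b-cPEko* mouse was below every wild type mouse, as in 4.18% of all genes. *Rpl13a*, which hosts several C/D box snoRNAs, was at 493 ± 20.02 CPM in wild type and 432 ± 12.5 CPM in *Tra2b-cPEko* mice (SD, n = 4 each). Its adjusted p was 0.0990 by edgeR's quasi-likelihood test and 0.0020 by DESeq2. *Rpl17* had a log2 fold change of -0.13 (SE 0.041). The snoRNP proteins, which bind snoRNAs or assemble them, had a median of -0.04 over 16 genes, with 15 below 0 and none called. *Nop58*, a core protein of C/D box snoRNPs and itself a host, had an estimate of -0.10 (SE 0.040), and *Pih1d1*, of the complex that assembles snoRNPs, -0.15 (SE 0.069).

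Of 19 factors that carry out NMD or mark exon junctions for it, none was called, 12 were below 0, and the median was -0.03. At an unadjusted p under 0.05, 4 were lower and 1 was higher, where 7.07% of all genes were lower. *Upf3b*, which links the exon junction complex to the decay machinery, was at 60.9 ± 1.66 CPM in wild type and 66.8 ± 1.61 CPM in *Tra2b-cPEko* mice (SD, n = 4 each), without overlap, with an adjusted p of 0.184 by edgeR's quasi-likelihood test. *Magohb*, a paralogue of an exon junction core protein, had an estimate of -0.26 (SE 0.087) and an adjusted p of 0.199 by the same test. The other 3 lower ones, *Rbm8a*, *Eif4a3* and *Magoh*, encode core proteins of the exon junction complex and had log2 fold changes of -0.14 (SE 0.045), -0.11 (SE 0.042) and -0.11 (SE 0.046). They are named after their values were seen. Of 24 other transcripts known to be sensitive to NMD, which include *Tra2b* itself, 1 was called by edgeR and 3 by DESeq2, *Tra2a*, *Tra2b* and *Trib3* (log2 fold change -0.39, SE 0.104). The gene called by edgeR was *Tra2a*, the paralogue of *Tra2b*, which fell from 129 ± 15.3 CPM to 69.5 ± 3.36 CPM (SD, n = 4 each; log2 fold change -0.89, adjusted p of 0.00231 by edgeR's quasi-likelihood test). The median of these 24 was -0.04, with 15 below 0. Over all genes, edgeR called 0.157% and DESeq2 2.79%.

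**Figure D5:**
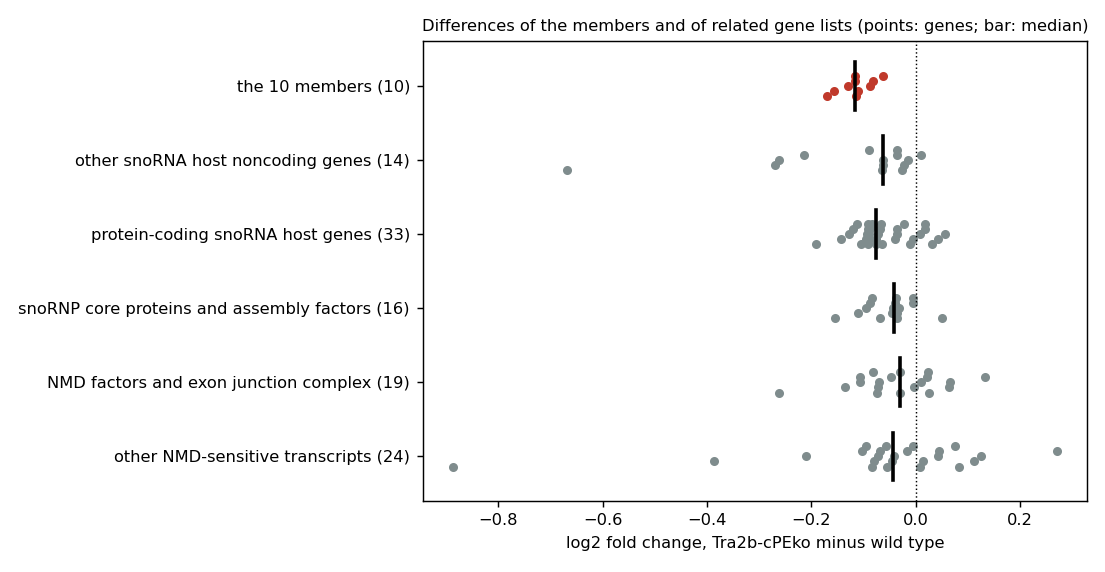
Log2 fold changes (horizontal axis, *Tra2b-cPEko* minus wild type) of the 10 members (red) and of 5 related lists (grey), with 1 point per gene, the number of genes in brackets and a bar at each median. The members lie between -0.17 and -0.06, and the medians of the other lists between -0.08 and -0.03.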

How the data were processed

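RNAseq libraries (paired-end, TruSeq Stranded mRNA) came from whole testes, 4 per genotype. The authors deposited raw counts of reads per gene, 1 table per mouse. The submitters' processing notes name HISAT2 2.2.1, SAMtools 1.7.1, HTSeq 2.0.2 and deepTools 3.5.1 with GRCm39, whereas the methods name Salmon and DESeq2. Summary lines, for reads assigned to no feature and the like, were left out of library sizes and tests. The reads assigned to no feature were 12.4% to 13.6%. Reads on genes were 36757386 or more per mouse.

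Counts were analysed with edgeR 4.0.16 in R 4.3.3, with filterByExpr (least count 10, least total 15), TMM factors and the robust quasi-likelihood test on genotype, with Benjamini-Hochberg adjustment over 19104 genes and a threshold of 0.05. Exact permutation tests on log2 CPM used all 70 arrangements and were two-sided. DESeq2 1.42.0, limma-voom (limma 3.58.1), other scalings, filters and thresholds, the replicate letter as a block, and fits without each mouse were run as alternatives. No library was a copy of another of the same genotype, as chi-square over its degrees of freedom was 6.2 to 19 for these pairs.

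The members and lists were chosen with earlier results of these data known. The genes named are the members, their listed neighbours, the called genes of each of the 5 related lists or otherwise the 2 with the lowest p, and the 5 genes most like the members. Single snoRNA rows, the cell type markers named, *Rbm8a*, *Eif4a3*, *Magoh* and *Trib3* were chosen after their values were seen. Annotation is from GENCODE vM39 and RefSeq. Figures were drawn with matplotlib 3.10.9. The results for 1 neighbouring gene are not reported here.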

Additional observations from a re-analysis of the deposited data

Results flagged for a closer look

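In 118 groups of 4 mice examined, 10 had 1 mouse far from the other 3 by Dixon's test, where chance gives about 1 in 20 groups, or 5.9 here. *Snhg12* was at 9.13 CPM in *Tra2b-cPEko* mouse C and between 9.96 and 10.1 CPM in the other 3. Of genes outside the members, *Magohb* was at 11.8 CPM in *Tra2b-cPEko* mouse D (others 9.49 to 9.70), *Slc3a2* at 260 CPM in wild type mouse B (others 240 to 243) and *Sgk3* at 96.2 CPM in wild type mouse C (others 76.7 to 79.4). *Rbm8a* was at 107 CPM in *Tra2b-cPEko* mouse D (others 96.9 to 98.4) and *Trib3* at 4.98 CPM in wild type mouse D (others 4.45 to 4.50).

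The other 4 were snoRNA rows read per 1000 reads of their host. Snord47 in *Gas5* was at 5.34 in wild type mouse C (others 7.21 to 7.44), and LOC115489084 in *Snhg1* was at 24.7 in wild type mouse B (others 20.3 to 20.5). LOC115487884 in *Snhg15* was at 61.7 in wild type mouse C (others 89.4 to 92.7). LOC115486178 in *Zfas1* was at 32.4 in *Tra2b-cPEko* mouse B (others 15.8 to 16.7).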

How the results depend on the processing

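No alternative called any of the 10 members, and the lowest adjusted p of a member ran from 0.118 (*Snhg1*, DESeq2) to 0.848 (*Snhg6*, with a covariate described below). The median log2 fold change of the members stayed below 0 throughout, between -0.15 and -0.08. Over all genes, 30 were called. This count was 58 with upper-quartile factors, 507 with DESeq2, 11 with limma-voom, 123 with no filter on low counts, 14 with a mean count of at least 50, 12 without robust estimation, 156 at an adjusted p under 0.1 and 3 at 0.01. Fits without 1 mouse called between 3 (without *Tra2b-cPEko* mouse D) and 84 (without wild type mouse C). With the replicate letter as a block it was 67, and none of the members was called with the replicate block. The labels do not say that the letters pair the mice, and the correlations of same-letter deviations were 0.0267, -0.135, -0.0393 and 0.116 for A to D. Such correlations cannot exclude that mice of a letter shared a litter or batch.

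A covariate chosen after seeing the data, the mean log2 level of the differentiating spermatogonia markers, left 0 genes called by edgeR, with 1368 at an unadjusted p under 0.05. The summed level of those markers differs between genotypes without overlap, as does 1 of the 8 markers, *Sohlh1*, alone. The effect of the markers and that of the genotype therefore cannot be told apart in this fit. With it *Zfas1* turned to 0.094 (SE 0.127), *Gas5* moved to -0.0089 (SE 0.121) and *Snhg12* to -0.04, the lowest estimate of a member was -0.17 (*Snhg6*), and 3 neighbours also turned, *Prss12* to 0.39, *Slc3a2* to -0.036 and *Mcmdc2* to -0.61. *Tra2a*, at -0.92, was then no longer called (adjusted p of 0.513 by edgeR's quasi-likelihood test). *Mcmdc2* also turned to -0.0038 with no filter on low counts, and over fits without 1 mouse it ran from -0.12 to 0.14, while *Trnau1ap* ran from -0.0905 to 0.0056.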
